A study of Mus musculus with 27 samples.

Results

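The genes described here mark white blood cells in the mouse heart. Of the 22855 genes counted in both tissues of the study, 9 were chosen by symbol: Cd52, Selplg, Ptprc and Coro1a, which most leukocytes transcribe, Cd3e and Cd3g of T cells, and Cd79a, Cd79b and Ms4a1 of B cells. The choice rested partly on the values themselves, since Cd52 and Selplg were picked for high whole heart levels late in life. RNA-Seq was done on C57Bl/6 mice at 5 ages, namely postnatal day 1, then 4 and 14 weeks, then 1 and 1.5 years. Whole hearts gave 15 libraries, 3 at each age. Cardiac fibroblasts, sorted from the hearts by flow cytometry for the surface receptor PDGFRα, gave 12 libraries, 3 at each of the first 2 ages and 2 at each of the later 3 ages. No genotype, drug or injury distinguished the groups, and a sorting step against leukocytes was not given in the sources used here. The study's methods describe separate animals and fibroblast sets at each age, of which the labels give 2 rather than 3 for fibroblasts from 14 weeks on. The labels do not give the number of animals per library. The spread between libraries is therefore taken as that between animals, sets or pools of animals.

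Ptprc encodes CD45, the receptor tyrosine phosphatase found on leukocytes of all lineages. Coro1a encodes coronin 1A, an actin-binding protein of leukocytes, Selplg encodes PSGL-1, the mucin with which leukocytes bind selectins on vessel walls, and Cd52 encodes a small lipid-anchored glycopeptide that is abundant on lymphocytes. Cd3e and Cd3g encode CD3 chains, which carry the signal of the T cell receptor. Cd79a and Cd79b encode the paired signalling chains of the B cell receptor, and Ms4a1 encodes CD20, a membrane protein of B cells. The healthy mouse heart holds resident macrophages as its main leukocytes, with far fewer B and T cells. In RNA from whole tissue or from a sorted pool, fewer cells of a type and less RNA per cell cannot be told apart.

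Libraries held 46091271 to 67984404 counted reads in whole heart and 54615898 to 76758831 in fibroblasts. Levels are given as CPM, a gene's reads relative to the library total, scaled within each tissue by the TMM method, and differences as log2 fold changes with standard errors. The summed CPM of 8 cardiomyocyte genes lay between 36969 and 88455 in whole heart and between 15.2 and 759 in fibroblasts, while that of 8 fibroblast genes lay between 1463 and 3375 in whole heart and between 34738 and 76180 in fibroblasts. Both tissues thus carried their own markers, but the sorted fibroblasts also held transcripts of other cell types. Endothelial genes summed to 1336 to 1639 CPM in fibroblasts and 749 to 777 in whole heart at 14 weeks, and overlapped at the other ages. Macrophage genes summed to 179 to 319 CPM in fibroblasts and 114 to 150 in whole heart at day 1. Their ranges overlapped at 4 weeks, and from 14 weeks on the fibroblasts lay lower. Which cells in the sorted pool held these transcripts was not tested. The sex-linked genes differed by age: at 14 weeks and 1 year Xist was at most 0.490 CPM in every library of both tissues, at 1.5 years Ddx3y was at most 0.392 CPM, and at postnatal day 1 and 4 weeks every library held both. A library with both genes may hold material of both sexes, so it cannot be taken as 1 animal. Sex and age therefore cannot be told apart in any comparison of 1.5 years with another age. The same holds for 14 weeks or 1 year against day 1 or 4 weeks. In whole heart Xist was at 183 to 470 CPM at day 1 and 6.55 to 148 CPM at 4 weeks, so the mix of sexes may differ there too.

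In GRCm38 with GENCODE M21 gene models, all 9 are protein-coding genes. The pan-leukocyte genes are Cd52 on chromosome 4 (134082448 to 134095082, minus strand), Selplg on chromosome 5 (113818536 to 113832644, minus strand), Ptprc on chromosome 1 (138062861 to 138175708, minus strand) and Coro1a on chromosome 7 (126699773 to 126707787, minus strand). The T cell genes share a chromosome, with Cd3g on chromosome 9 (44969572 to 44980431, minus strand) and Cd3e on chromosome 9 (44998740 to 45009627, minus strand). The B cell genes are Cd79a on chromosome 7 (24897381 to 24902197, plus strand), Cd79b on chromosome 11 (106311341 to 106314762, minus strand) and Ms4a1 on chromosome 19 (11249675 to 11266241, minus strand).

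Reference promoters were listed for 5 of the 9 genes, and upstream sequences of 4 are shown because these genes passed the test in whole heart (Ptprc and Coro1a) or stand for the T and B cell receptors (Cd3e and Cd79a). Each is the 250 bases before a RefSeq transcription start (build GRCm38.p6), read 5′ to 3′ on the gene's strand. Upstream here refers to that start. The stretches of Ptprc and Coro1a lie wholly, and those of Cd3e and Cd79a partly, within the GENCODE gene spans given above. Capitals mark matches to the motifs searched, and a match on the opposite strand appears as its reverse complement.
Ptprc, chr1:138175306-138175555, minus strand: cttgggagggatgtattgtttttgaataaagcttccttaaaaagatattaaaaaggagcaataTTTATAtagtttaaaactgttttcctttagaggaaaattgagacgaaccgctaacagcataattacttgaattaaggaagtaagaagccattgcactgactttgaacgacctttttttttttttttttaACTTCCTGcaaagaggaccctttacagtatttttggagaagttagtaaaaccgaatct
Coro1a, chr7:126704817-126705066, minus strand: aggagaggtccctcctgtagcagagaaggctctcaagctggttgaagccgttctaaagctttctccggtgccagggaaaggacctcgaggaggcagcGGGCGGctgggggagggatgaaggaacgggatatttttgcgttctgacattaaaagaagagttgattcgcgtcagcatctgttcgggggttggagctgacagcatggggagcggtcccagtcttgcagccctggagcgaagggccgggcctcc
Cd3e, chr9:45009612-45009861, minus strand: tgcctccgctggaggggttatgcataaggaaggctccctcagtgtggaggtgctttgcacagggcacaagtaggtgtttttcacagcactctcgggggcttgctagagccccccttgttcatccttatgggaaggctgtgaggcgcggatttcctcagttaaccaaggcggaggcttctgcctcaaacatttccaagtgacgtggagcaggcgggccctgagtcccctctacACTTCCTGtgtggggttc
Cd79a, chr7:24897247-24897496, plus strand: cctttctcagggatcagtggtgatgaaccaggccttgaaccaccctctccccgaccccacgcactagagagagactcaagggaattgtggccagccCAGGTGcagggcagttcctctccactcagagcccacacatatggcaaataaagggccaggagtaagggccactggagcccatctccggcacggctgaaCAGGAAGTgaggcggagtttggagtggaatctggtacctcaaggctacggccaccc
The motifs searched on both strands of the 250 bases numbered 8, with no overlapping matches in these promoters. The ETS core CAGGAAGT was found upstream of Ptprc, Cd3e and Cd79a, and in 2.69% of all 32851 promoters of the same length. It was not found upstream of Coro1a or Cd3g. The GC box GGGCGG, held by 32.74% of all promoters, was found upstream of Coro1a and Cd3g. The E-box CAGGTG, held by 17.22%, was found upstream of Cd79a and Cd3g, and TATAAA, held by 12.37%, upstream of Ptprc. The PU.1 core GAGGAAGT (2.44% of all promoters), the octamer ATTTGCAT (1.6%), the EBF1 palindrome (0.78%) and the RUNX core TGTGGTT (4.4%) were not found in the listed promoters of these genes. Cd52, Selplg, Cd79b and Ms4a1 were not in the promoter table.

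Per transcript length, the pan-leukocyte genes stood above the lymphocyte genes in whole heart. Mean RPKM (CPM divided by transcript length in kilobases) over the 15 hearts were 11.7 for Cd52, 8.67 for Coro1a, 3.86 for Selplg and 1.41 for Ptprc. They were 0.612 for Cd79b, 0.484 for Cd3g, 0.418 for Cd79a, 0.350 for Cd3e and 0.0872 for Ms4a1. Part of the Cd52 count is uncertain, since 14.5% of its exon bases overlap Crybg2 on the opposite strand and the strand setting of the counting was not given in the sources used here. The shared part was 3.31% for Cd3e, with the antisense gene Gm48719, and 0.934% for Coro1a, with Bola2.

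The first question was how the leukocyte genes change as the neonatal heart grows to 4 weeks. Selplg, Ptprc and Coro1a rose in whole heart, and the T and B cell genes did not pass the test. Selplg was at 0.895, 0.340 and 0.945 CPM in the day 1 hearts and at 7.44, 7.93 and 7.02 CPM at 4 weeks. Ptprc was at 0.709, 0.907 and 1.49 CPM and then at 10.6, 5.46 and 16.1 CPM. Coro1a, the most abundant of the 9 by CPM, went from 4.44, 4.79 and 6.42 CPM to 10.7, 24.99 and 14.4 CPM. For each of these genes every 4-week heart lay above every day 1 heart.

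By edgeR's quasi-likelihood test with Benjamini-Hochberg adjustment over 17995 genes, Ptprc was 3.37 higher on the log2 scale (SE 0.530, adjusted p = 2.3e-04). Selplg rose by 3.36 (SE 0.509, adjusted p = 1.6e-04) and Coro1a by 1.68 (SE 0.303, adjusted p = 7.9e-04). Cd52 was also higher in every 4-week heart, with 3.95, 7.44 and 4.20 CPM against 1.48, 1.15 and 1.89 CPM. Its difference of 1.78 (SE 0.605) did not pass edgeR's test (adjusted p = 0.0509). It passed with at least 10 counts in every sample (adjusted p = 0.0275), with only the groups compared (0.0429) and in DESeq2 (0.0222), and over all alternatives the adjusted p ranged from 0.0222 to 0.169. Of the 9 genes, 3 were called higher and 0 lower, beside 12.1% of all tested genes called higher and 6.1% called lower. DESeq2 called 4 higher. The median log2 fold change of the 9 was 1.68, against -0.09 over all genes tested.

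The lymphocyte genes showed no such shift by 4 weeks. Cd3e was found in 1 of 3 hearts at day 1 (19 reads) and in 2 of 3 at 4 weeks (35 and 44 reads). Cd79b had 94, 69 and 13 reads at day 1 and 43, 89 and 0 reads at 4 weeks, with means of 0.626 ± 0.449 and 0.660 ± 0.648 CPM (SD, n = 3). The fitted log2 fold changes were 2.52 (SE 2.05) for Cd3e, -0.33 (SE 2.58) for Cd3g, -0.73 (SE 2.19) for Cd79a, 0.08 (SE 1.64) for Cd79b and -0.86 (SE 2.60) for Ms4a1. With standard errors of this size, changes of several fold in either direction could not be detected.

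**Figure D1:**
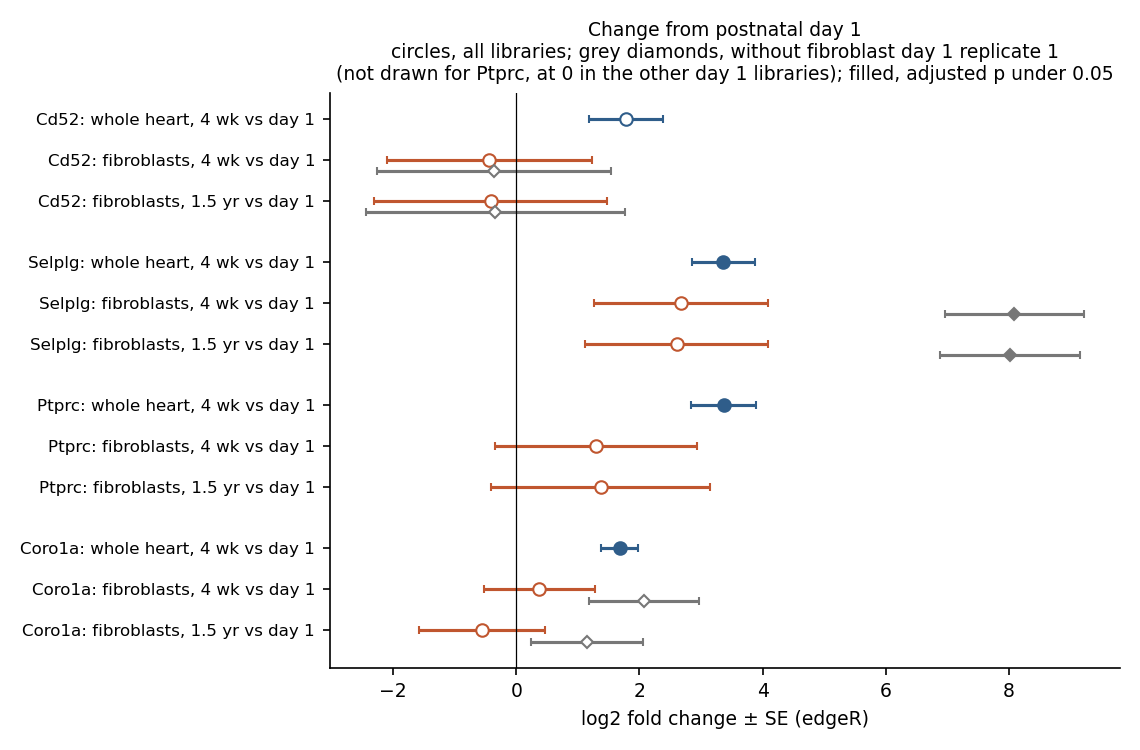
Fitted log2 fold change from postnatal day 1 for the 4 pan-leukocyte genes (x axis, ± SE), to 4 weeks in both tissues and to 1.5 years in fibroblasts, with whole heart in blue and PDGFRα+ fibroblasts in orange; filled symbols passed an adjusted p of 0.05. Selplg, Ptprc and Coro1a passed in whole heart, and in fibroblasts Selplg and Ptprc did once day 1 replicate 1 was left out (grey diamonds, not drawn for Ptprc because its other day 1 libraries were at 0).

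The shares of other marker lists called higher in the same comparison ranged from 11 of 12 macrophage genes to 0 of 9 neutrophil genes, beside 12.1% of all genes. Of 12 macrophage genes, 11 rose and 1 did not pass, and the list's median log2 difference was 2.31. Of 24 further pan-leukocyte genes, 10 rose and 14 did not pass, with a median of 1.33. Among them Itgb2, the β2 integrin chain of leukocytes, rose from 1.68 ± 0.334 to 11.2 ± 1.51 CPM (adjusted p = 6.3e-05), and Dock2, which activates Rac in leukocytes, rose from 0.803 ± 0.416 to 5.55 ± 0.491 CPM (adjusted p = 0.011). Outside the leukocyte lists, 6 of 8 cardiomyocyte and 4 of 9 endothelial genes were called higher. The T cell and B cell lists had shares called higher close to that of all genes, and the PSGL-1 list a lower share. Of 17 T cell genes, 2 rose, including the costimulatory receptor Cd28, from 0.423 ± 0.359 to 2.97 ± 0.772 CPM (adjusted p = 0.029). Of 17 B cell genes, 2 rose: Ighm, the heavy chain of IgM, from 1.65 ± 1.11 to 11.6 ± 1.14 CPM (adjusted p = 1.6e-04), and Blnk, an adaptor of the B cell receptor that myeloid cells also transcribe, from 0.472 ± 0.121 to 3.52 ± 0.958 CPM (adjusted p = 0.0013). Of 12 genes for PSGL-1 ligands and glycosylation, 1 rose, the sialyltransferase St3gal6, from 13.8 ± 2.85 to 27.2 ± 1.34 CPM (adjusted p = 0.0046). All means here have n = 3. No gene of these lists or of the 9 neutrophil genes fell, while 1 of 2 mast cell genes did. The neutrophil genes had a median log2 difference of -1.21 and the mast cell genes one of -2.07. The summed CPM of the macrophage genes went from 114 to 150 at day 1 to 575 to 733 at 4 weeks. How far these cells account for the rise of Selplg, Ptprc and Coro1a was not tested.

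**Figure D2:**
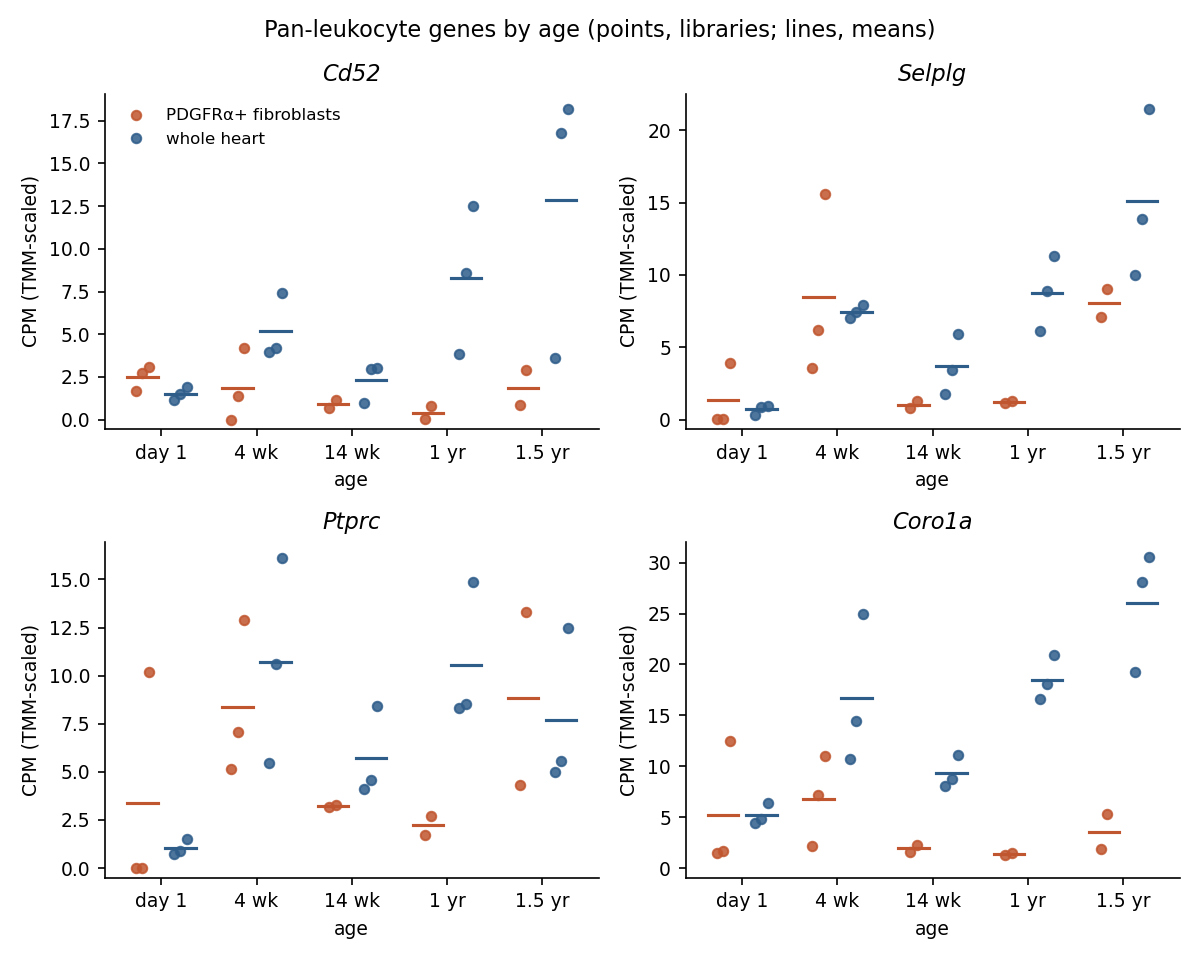
TMM-scaled CPM (y axis) of the 4 pan-leukocyte genes by age (x axis), with 1 point per library and a line at the mean, fibroblasts in orange and whole heart in blue. In whole heart all 4 are lowest at day 1 and dip at 14 weeks, and Cd52, Selplg and Coro1a have their highest means at 1.5 years.

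After 4 weeks the whole heart levels are a description, without a test, because late values of Cd52 and Selplg chose the genes. Cd52 was at 2.96, 3.01 and 0.968 CPM at 14 weeks, at 8.59, 3.83 and 12.5 CPM at 1 year and at 3.62, 16.8 and 18.2 CPM at 1.5 years. The lowest heart of 1.5 years fell below every heart of 4 weeks. Selplg was at 1.80, 3.42 and 5.92 CPM at 14 weeks, at 11.3, 6.14 and 8.86 CPM at 1 year and at 10.004, 13.9 and 21.5 CPM at 1.5 years. Every heart of 1 year and 1.5 years lay above every heart of 14 weeks. Coro1a was at 8.05, 11.1 and 8.79 CPM at 14 weeks, at 18.1, 16.6 and 20.9 CPM at 1 year and at 19.3, 28.1 and 30.6 CPM at 1.5 years, again without overlap with 14 weeks. Ptprc did not share the last step, with 4.11, 8.41 and 4.56 CPM at 14 weeks, 8.30, 8.54 and 14.9 CPM at 1 year and 12.5, 5.00 and 5.56 CPM at 1.5 years.

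Ranked by mean, Cd52, Selplg and Coro1a followed the order 1.5 years, 1 year, 4 weeks, 14 weeks and day 1. Ptprc followed the order 4 weeks, 1 year, 1.5 years, 14 weeks and day 1. Neighbouring ages overlapped in most of these orders. The ones set apart were 4 from 14 weeks for Cd52 and Selplg, and 14 weeks from day 1 for Selplg, Ptprc and Coro1a. From 14 weeks to 1.5 years the log2 differences were 2.48 for Cd52, 2.03 for Selplg, 1.48 for Coro1a and 0.43 for Ptprc. Ptprc turned to -0.11 without replicate 1 of 1.5 years. From 14 weeks to 1 year they were 1.85, 1.24, 0.99 and 0.89. From 4 to 14 weeks all 4 were negative, at -1.17 for Cd52, -1.01 for Selplg, -0.84 for Coro1a and -0.92 for Ptprc.

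Transcript length moved with this late difference. Over 12972 genes, the log2 difference between 1.5 years and 14 weeks had a Spearman correlation of -0.582 with transcript length, as a description across genes that share these libraries. Its median was 0.80 for transcripts under 1000 bases, 0.40 from 1000 to 2000, -0.03 from 2000 to 4000 and -0.53 at 4000 and over. The annotated transcripts were 514 bases for Cd52, 1747 for Coro1a, 1855 for Selplg and 5074 for Ptprc, so the 4 genes stood in the same order by length as by difference except for Selplg and Coro1a. With an offset for length and GC content, the differences were 1.53 for Cd52, 1.63 for Selplg, 1.06 for Coro1a and 0.89 for Ptprc. All 4 stayed above 0 and lay closer together.

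**Figure D3:**
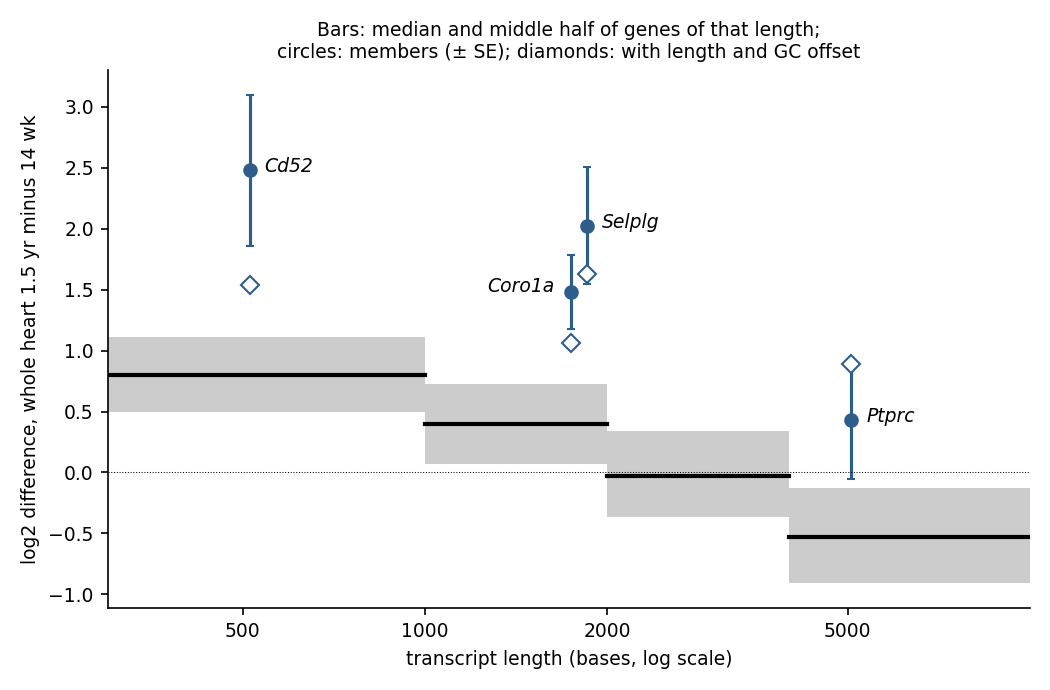
Log2 difference between whole hearts of 1.5 years and 14 weeks (y axis) against transcript length (x axis, log scale), with the median (line) and interquartile range (grey) of all genes in each length class, the 4 pan-leukocyte genes (circles, ± SE) and the same genes with the length and GC offset (diamonds). Each of the 4 lies above the median of its own class, and the range of 0.43 to 2.48 narrows to 0.89 to 1.63 under the offset.

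Several marker lists, of leukocytes and of other cells, were also higher in the late hearts, while endothelial genes were not. These sums were not adjusted for transcript length. The 12 macrophage genes summed to 432 to 488 CPM at 14 weeks, 693 to 823 at 1 year and 720 to 938 at 1.5 years. The 24 further pan-leukocyte genes summed to 162 to 188 CPM at 14 weeks and 319 to 409 at 1.5 years. The 9 endothelial genes summed to 749 to 777 CPM at 14 weeks, 608 to 697 at 1 year and 698 to 738 at 1.5 years. Red cell genes summed to 296 to 377 CPM at 14 weeks and 689 to 1645 at 1.5 years. Platelet genes summed to 8.41 to 15.2 and 21.4 to 49.2 CPM at these ages, and fibroblast genes to 2115 to 2626 and 2910 to 3330. The rise was thus not limited to leukocyte lists. In every heart all 12 macrophage and all 5 red cell genes had reads, and at most 2 of the 24 pan-leukocyte genes were at 0. The part of these cells in the late levels of Cd52 and Selplg was not tested. The 17 T cell genes summed to 6.99 to 10.7 CPM at 14 weeks and 12.9 to 19.8 at 1.5 years, and the 20 B cell genes to 31.0 to 40.7 and 46.6 to 57.9 CPM. Over all hearts Ebf1, which is also transcribed in stromal cells, made up 43.1% of the B cell sum and Ighm 24.2%. The B cell sum is therefore not a measure of B cells alone. NK and cytotoxic genes summed to 0 to 1.07 CPM at 14 weeks and 7.54 to 15.1 at 1.5 years, led over all hearts by Ccl5, a chemokine of T and NK cells.

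**Figure D4:**
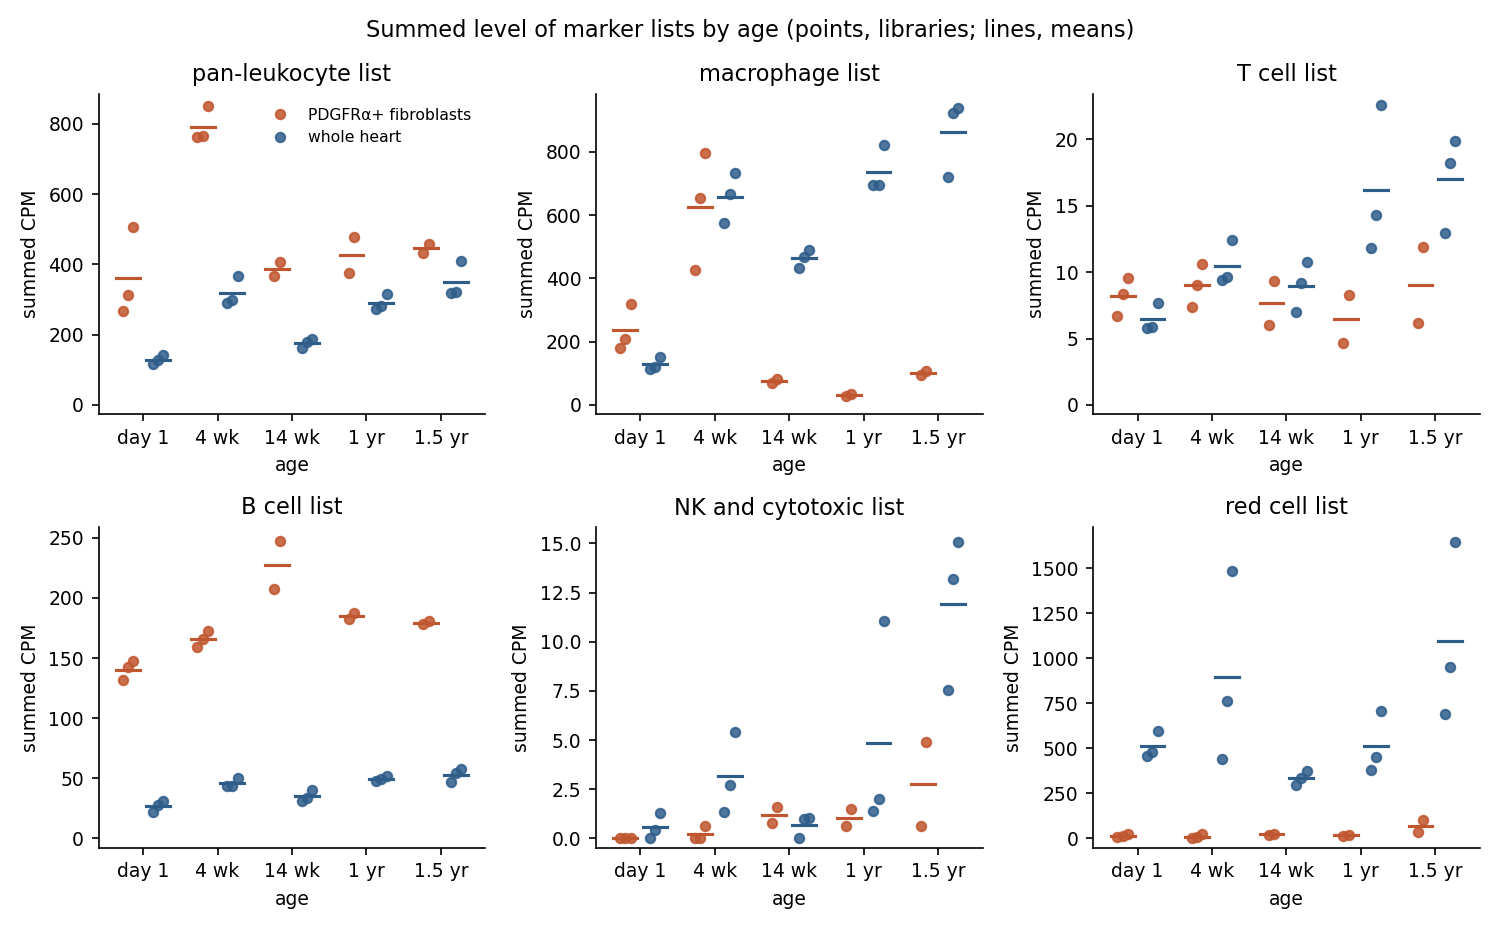
Summed CPM (y axis) of 6 marker lists by age (x axis), with 1 point per library and a line at the mean, fibroblasts in orange and whole heart in blue. In whole heart the macrophage sum goes from 114 to 150 at day 1 to 720 to 938 at 1.5 years, while in fibroblasts it peaks at 4 weeks (428 to 797) and is lowest at 1 year (28.02 to 34.3).

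The T and B cell genes were near the limit of detection at every age. Of 75 values for the 5 genes in whole heart, 25 were 0, 1 lay between 1 and 9 reads and 49 were 10 reads or more. In fibroblasts 41 of 60 values were 0, 2 lay between 1 and 9 and 17 were 10 or more. Zeros thus stood beside counts of 10 or more with little between. A library at 0 allows up to 3 reads, or 0.0391 to 0.0651 CPM depending on its depth. Reads copied in PCR are not independent molecules, so this limit covers counting error only. Folds given below as at least a value hold for that error alone.

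Cd3e in whole heart had 22, 0 and 17 reads at 14 weeks, 43, 21 and 55 at 1 year and 26, 49 and 116 at 1.5 years. It was the one lymphocyte gene found in all 6 late hearts. Cd3g had 34, 0 and 0 reads at 14 weeks, 58, 0 and 91 at 1 year and 66, 128 and 0 at 1.5 years. The 2 CD3 chains were thus not always found in the same heart. Cd79a had 0, 25 and 27 reads, then 67, 37 and 0, then 1, 30 and 183. Cd79b had 65, 47 and 17 reads, then 94, 29 and 0, then 38, 100 and 108. Ms4a1 had 37, 0 and 17 reads, then 16, 0 and 17, then 68, 0 and 0. For all 5 genes the mean CPM was highest at 1.5 years, and the ranges of neighbours in the order of means overlapped in every case. Between ages that follow each other in time, the lowest Cd3e level at 1 year (0.423 CPM) lay just above the highest at 14 weeks (0.392 CPM). Cd3e means were 0.243 ± 0.212, 0.791 ± 0.343 and 1.06 ± 0.755 CPM (SD, n = 3) at these 3 ages in turn.

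**Figure D5:**
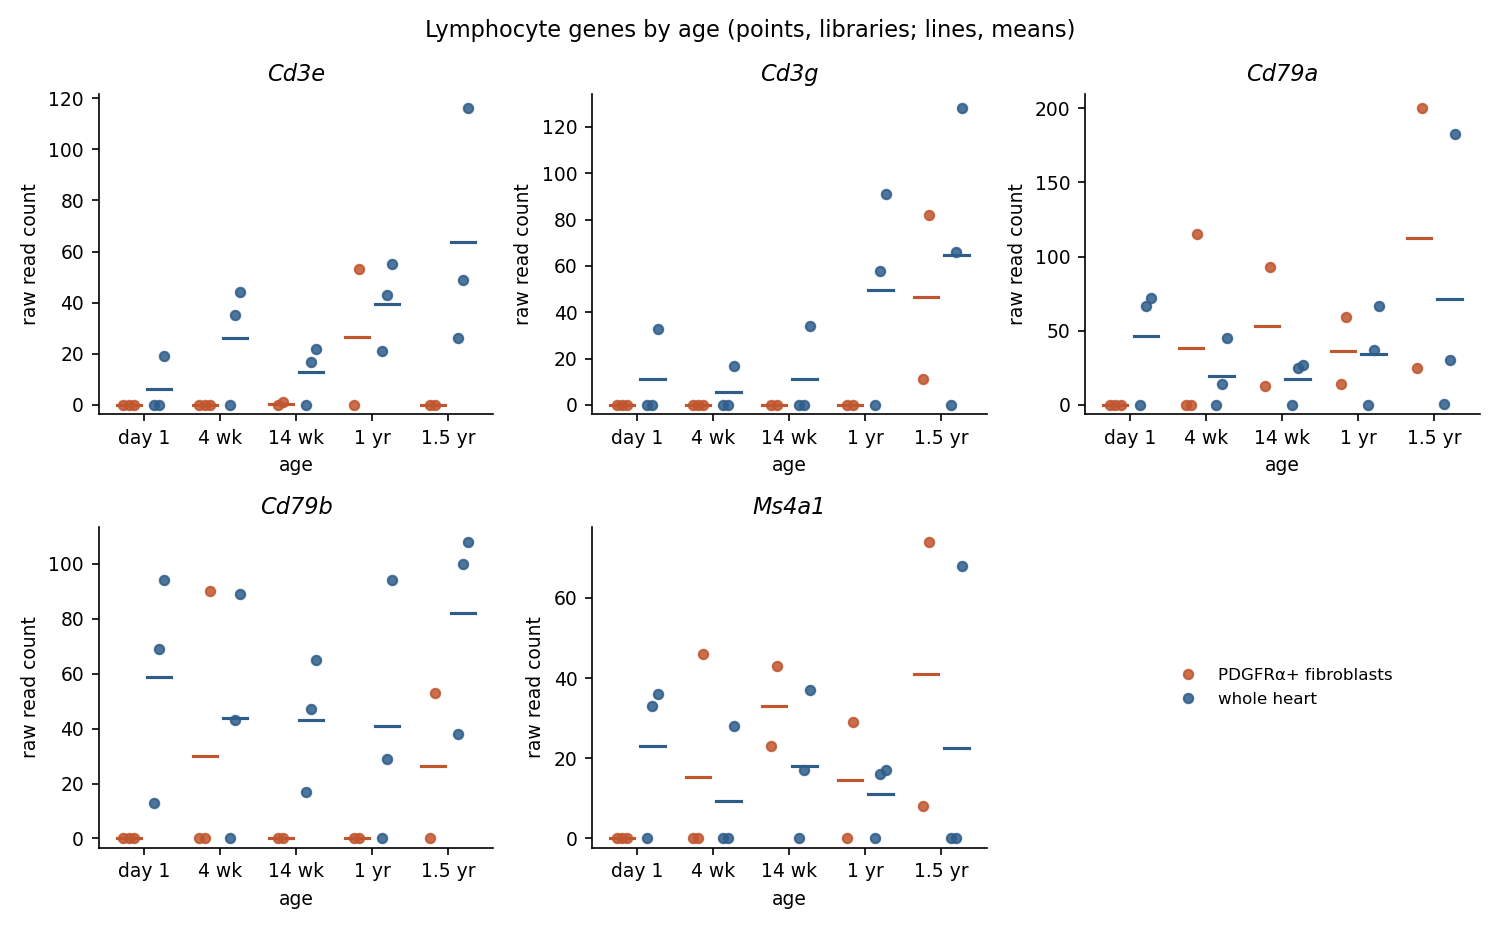
Raw read counts (y axis) of the 5 T and B cell genes by age (x axis), with 1 point per library and a line at the mean, fibroblasts in orange and whole heart in blue. Every day 1 fibroblast library is at 0 for all 5 genes, and within most groups libraries at 0 stand beside libraries with 10 reads or more.

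The second question was whether sorted fibroblasts carried the same genes and whether these changed with age. They carried the pan-leukocyte genes at low levels, and none of the 9 passed the test in any of 5 age comparisons. Selplg was at 3.90, 0.0439 and 0.0147 CPM at day 1, at 3.54, 15.6 and 6.198 at 4 weeks, at 0.779 and 1.29 at 14 weeks, at 1.32 and 1.16 at 1 year and at 7.07 and 9.01 at 1.5 years. Ptprc was at 10.2, 0 and 0 CPM at day 1, at 7.08, 5.14 and 12.9 at 4 weeks, at 3.29 and 3.15 at 14 weeks, at 2.72 and 1.71 at 1 year and at 4.34 and 13.3 at 1.5 years. Both genes were low at 14 weeks and 1 year and higher at 4 weeks and 1.5 years, and their levels went together over the 12 libraries (Pearson r = 0.927 of log2 CPM, as a description).

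Coro1a was at 12.5, 1.52 and 1.69 CPM at day 1, at 2.12, 11.04 and 7.20 at 4 weeks, at 2.27 and 1.60 at 14 weeks, at 1.52 and 1.26 at 1 year and at 1.85 and 5.28 at 1.5 years. Cd52 was at 2.75, 1.70 and 3.05 CPM at day 1, at 0, 4.18 and 1.37 at 4 weeks, at 0.658 and 1.12 at 14 weeks, at 0.788 and 0.0161 at 1 year and at 0.845 and 2.90 at 1.5 years. For Cd52 the ranges of neighbouring ages overlapped throughout the order of means.

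Day 1 replicate 1 of the fibroblasts stood apart from replicates 2 and 3. It held 833 reads of Ptprc against 0 and 0, 318 of Selplg against 3 and 1, and 1019 of Coro1a against 104 and 115. Its summed macrophage genes were 319 CPM against 179 and 209, and its summed pan-leukocyte genes 507 CPM against 266 and 312. With this library, the change to 4 weeks was 2.67 for Selplg (SE 1.41, edgeR adjusted p = 0.221) and 1.30 for Ptprc (SE 1.63, adjusted p = 0.669). Without it, edgeR called both higher at 4 weeks (adjusted p = 5.2e-04 for Selplg and 2.0e-04 for Ptprc) and at 1.5 years against day 1 (5.2e-04 and 1.6e-04). Against the remaining day 1 libraries, taken at the limit of 3 reads each, Ptprc was at least 181-fold higher at 4 weeks and at least 175-fold higher at 1.5 years. These bounds cover counting error only, since fibroblast libraries with any Ptprc reads held 106 or more. With all day 1 libraries the mean was 3.40 CPM at day 1 and 8.37 CPM at 4 weeks. Whether the early change of both genes in fibroblasts passed the test therefore rested on a single day 1 library.

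In counts, edgeR called 0 of the 8 members that passed the low count filter in each fibroblast comparison, and Cd3e did not pass it. All genes called higher and lower were 9.28% and 6.2% for 4 weeks against day 1, 1.79% and 2.08% for 14 against 4 weeks, and 1.31% and 0.474% for 1 year against 14 weeks. They were 1.91% and 0.816% for 1.5 years against 14 weeks and 9.86% and 6.46% for 1.5 years against day 1. At an unadjusted p under 0.05 the members were 1, 0, 0, 0 and 3 in that order, and DESeq2 called 0 in each. Those members were Cd79a at 4 weeks and Cd3g, Cd79a and Ms4a1 at 1.5 years, each at 0 in the day 1 libraries. Cd3g had reads at 1.5 years only and passed the filter through that group. The share of all genes at this unadjusted threshold is not given, so no conclusion is drawn from these counts. The choice of genes did not use the late fibroblast values. Selplg was higher in both 1.5-year libraries than in both of 14 weeks, by 2.96 (SE 1.75, adjusted p = 0.496). It passed only when these 4 libraries were fitted alone (adjusted p = 0.0364), and over all alternatives the adjusted p ranged from 0.0364 to 0.857. Cd52 differed by 1.07 (SE 2.07, adjusted p = 0.910), Coro1a by 0.88 (SE 1.11, adjusted p = 0.813) and Ptprc by 1.45 (SE 2.01, adjusted p = 0.839).

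Each lymphocyte gene was at 0 in all 3 day 1 fibroblast libraries. Cd79a was then the most often found, with 0, 0 and 115 reads at 4 weeks, 93 and 13 at 14 weeks, 14 and 59 at 1 year and 25 and 200 at 1.5 years. Ms4a1 had 0, 46 and 0 reads, then 43 and 23, then 0 and 29, then 8 and 74. Cd79b had reads in 2 of 12 libraries, 90 in a 4-week and 53 in a 1.5-year library. Cd3g had reads only at 1.5 years (11 and 82), and Cd3e had 53 reads in a 1-year library and 1 read in a 14-week library. Against the limit of 3 reads in each day 1 library, Cd79a at 1.5 years was at least 36.6-fold higher (edgeR adjusted p = 0.0823), which did not pass.

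In fibroblasts the macrophage genes had the most calls among the leukocyte lists from day 1 to 4 weeks. Of 12 macrophage genes, 5 rose from day 1 to 4 weeks, beside 9.28% of all genes. From 4 to 14 weeks 7 of the 12 fell, beside 2.08% of all genes. The summed level was 428 to 797 CPM at 4 weeks and 68.7 to 81.3 at 14 weeks. Of 24 pan-leukocyte genes, 2 rose to 4 weeks, a smaller share than the 9.28% of all genes: Lsp1, an actin-binding protein, from 232 ± 52.9 to 555 ± 39.9 CPM (adjusted p = 4.4e-04), and Lcp1, which bundles actin, from 17.2 ± 10.2 to 43.4 ± 8.64 CPM (adjusted p = 0.036). From 4 to 14 weeks 6 of the 24 fell, among them Nckap1l, from 18.8 ± 7.83 to 1.24 ± 0.309 CPM (adjusted p = 0.038), and Fermt3, from 6.49 ± 2.80 to 0.549 ± 0.017 CPM (adjusted p = 0.021). Lsp1 alone made up 71.7% of the pan-leukocyte sum in fibroblasts, and Ebf1, a transcription factor of B cells that is also transcribed in stromal cells, 87.7% of the B cell sum. The 12 T cell genes that passed the filter gave 0 calls in all 5 fibroblast comparisons.

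Of 15 B cell genes, 3 rose from day 1 to 4 weeks in fibroblasts, beside 9.28% of all genes. So few calls do not set this list apart from all genes. Blnk went from 0.0195 ± 0.0224 to 5.32 ± 1.06 CPM (adjusted p = 8.6e-06) and Ighd, the heavy chain of IgD, from 0 in all 3 libraries to 1.15 ± 0.336 CPM (adjusted p = 0.011). Among the partners of PSGL-1, Sele, the endothelial selectin, fell from 297 ± 98.6 CPM at day 1 to 19.7 ± 10.9 at 4 weeks (adjusted p = 1.1e-04) and to 4.14 ± 0.424 at 14 weeks (adjusted p = 0.035), and was at 20.6 ± 13.6 CPM at 1.5 years (adjusted p = 0.047 against 14 weeks). St3gal6 rose from 11.005 ± 2.78 to 20.7 ± 4.31 CPM by 4 weeks (adjusted p = 0.024). The day 1 and 4-week means have n = 3 and the later ones n = 2. The summed endothelial genes ranged from 448 to 682 CPM at day 1 and from 614 to 2063 CPM at 4 weeks. These ranges overlapped, the highest value came from replicate 3 of 4 weeks, and 1 of 9 endothelial genes was called higher.

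The third question was whether sorted fibroblasts and whole heart differed at the same age. These tests treated the libraries as independent, although the study isolated its fibroblasts from the hearts that it sequenced. At day 1 Cd79b was lower in fibroblasts, with 0, 0 and 0 reads against 94, 69 and 13, or at least 20.1-fold lower (edgeR adjusted p = 0.0388). It was the 1 of 9 called lower, and 0 were called higher, beside 18.7% of all genes called lower and 13.6% called higher. DESeq2 called 3 lower: Cd79a, Cd79b and Ms4a1. The edgeR call was lost when any day 1 library but the third heart was left out (adjusted p up to 0.0941). Without fibroblast replicate 1, Selplg, Ptprc and Coro1a were called lower in fibroblasts instead (adjusted p = 9.4e-05, 2.7e-06 and 0.0056), and with it their adjusted p were 0.775, 0.436 and 0.751.

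At 4 weeks Coro1a was lower in fibroblasts, with a log2 difference of -1.65 (SE 0.627, adjusted p = 0.0422), with 158, 822 and 532 reads against 672, 1717 and 1019. Over 12972 genes this tissue difference had a Spearman correlation of 0.327 with transcript length. In the length class of Coro1a, 1000 to 2000 bases, its median was -0.65 (quartiles -1.81 and 0.29). Coro1a thus lay within the middle range of its class. With the length and GC offset it was -1.36 (edgeR adjusted p = 0.0824). Cd3e had 0, 0 and 0 reads against 35, 44 and 0, or at least 9.59-fold lower (adjusted p = 0.0392). It did not pass the low count filter in fibroblasts alone and entered this fit through the hearts. The test could thus only find it lower, so no conclusion is drawn from its call. These were 2 of 9 called lower and 0 higher, beside 18.6% and 17.5% of all genes, and DESeq2 also called 2. Over the alternatives the adjusted p ranged from 0.0147 to 0.213 for Coro1a and from 0.0154 to 0.0931 for Cd3e. The libraries whose omission kept the Coro1a call were fibroblast replicate 2 and heart replicate 1, and for Cd3e heart replicate 3, which had no reads. Selplg and Ptprc did not pass at 4 weeks, with differences of -0.17 (SE 0.989) and -0.72 (SE 1.21).

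Few genes of the pan-leukocyte, T cell and B cell lists differed between the tissues, in shares below those of all genes. Of the 24 pan-leukocyte genes, Lsp1 was the 1 called higher in fibroblasts, at 232 ± 52.9 against 35.8 ± 11.7 CPM at day 1 (adjusted p = 2.7e-08) and 555 ± 39.9 against 71.1 ± 18.6 CPM at 4 weeks (adjusted p = 3.9e-09). Fermt3, an integrin activator of blood cells, was the 1 called lower, at 4 weeks (6.49 ± 2.80 against 11.8 ± 2.63 CPM, adjusted p = 0.025). Of the 20 B cell genes, Ebf1 was the 1 called higher at both ages (log2 differences of 2.31 and 2.46), and 2 and 1 were called lower. Of the 17 T cell genes, 2 and 1 were called lower and 0 higher. In fibroblasts alone, 12 of these T cell genes and 15 of the B cell genes passed the low count filter. Genes that entered this fit only through the hearts could only be found lower. No conclusion is therefore drawn from the genes called lower in these 2 lists. Of the 12 PSGL-1 genes, 4 were higher and 1 lower at each age, with Sele higher by 6.07 and 3.35 and the sulfotransferase Tpst1, which modifies PSGL-1 for selectin binding, by 3.04 and 2.94. St3gal6 was lower by -0.67 and -0.74. Of the 12 macrophage genes, 3 were higher and 1 lower at day 1, and 0 were higher and 2 lower at 4 weeks.

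The change from day 1 to 4 weeks itself was not shown to differ between the tissues. EdgeR called 0 of the 9 for this difference, beside 7.14% of all genes called in either direction, or 3.18% higher and 3.96% lower. Members at an unadjusted p under 0.05 numbered 2, Cd79a and Cd79b, and DESeq2 called 1, Ms4a1. All of these were at 0 in the day 1 fibroblasts. The share of all genes at the unadjusted threshold is not given, so no conclusion is drawn from that count. The differences, fibroblast change minus heart change, were -2.23 for Cd52 (SE 1.59, adjusted p = 0.470), -0.69 for Selplg (SE 1.41, adjusted p = 0.942), -2.09 for Ptprc (SE 1.73, adjusted p = 0.563) and -1.31 for Coro1a (SE 0.869, adjusted p = 0.422). Without fibroblast day 1 replicate 1, Selplg and Ptprc were called, with larger rises in fibroblasts (adjusted p = 0.0038 and 2.8e-04).

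Likeness of pattern was measured by Pearson's r of log2 CPM with every gene at a mean of at least 1 CPM, as a description over libraries that share depth and scaling. Over the 15 hearts, Selplg was most like C1qa (r = 0.962), Psmb9 (0.961) and Clec3b (0.957). Ptprc was most like Gbp2 (0.962), Cybb (0.951) and Nckap1l (0.939), and Coro1a most like Ifi27l2a (0.956), Slamf8 (0.942) and Josd2 (0.941). Cd52 was most like H2-T22 (0.931), Coro1a (0.891) and Tmem106a (0.890). C1qa and Cybb are macrophage genes, and Psmb9, Gbp2 and H2-T22 belong to interferon response and antigen presentation. Over the 12 fibroblast libraries the closest were Ddx17, Tnip2 and 9430091E24Rik for Selplg (r = 0.938 to 0.950), 9430091E24Rik, Gpr132 and Gm37874 for Ptprc (0.966 to 0.975), Arhgap30, Ccdc114 and Nrde2 for Coro1a (0.844 to 0.880) and Zfand4, Ddias and Impa2 for Cd52 (0.869 to 0.921). No gene among these closest matches was shared between the tissues.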

How the data were processed

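Gene counts of 27 libraries were analysed as deposited, 12 of sorted PDGFRα+ cardiac fibroblasts and 15 of whole heart. The labels give polyA RNA as the molecule. Per the study's methods, single-end reads of 65 bases were aligned by the authors with STAR 2.5.3a to mm10, and the deposited values are the raw counts per gene that STAR wrote. The annotation and the strand setting were not given in the sources used here. Groups came from the labels. CPM, TMM scaling, filterByExpr and quasi-likelihood tests were computed with edgeR 4.0.16 in R 4.3.3, in 1 fit per tissue with age as factor and in 1 fit of all libraries for differences between tissues, with Benjamini-Hochberg adjustment over all genes and a threshold of 0.05. DESeq2 1.42.0 was an alternative, beside other scalings, filters, offsets and each library left out. The tests were checked on simulated counts. Transcript lengths and exons came from GENCODE M21 (GRCm38). The members and the marker lists were chosen with earlier results of these data known. All 9 members were described in every comparison. From the pan-leukocyte, T cell, B cell and PSGL-1 lists, at most 2 called genes per direction with the largest change and at least 1 CPM in a group were named, and for each member of at least 1 CPM the 3 genes most like it. Of 152 listed genes, 140 were in the count tables and the other 12 were not analysed here. Of 24 replicate pairs, 0 held identical counts.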

Additional observations from a re-analysis of the deposited data

Results flagged for a closer look

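Coro1a moved in opposite directions in the tissues between 14 weeks and 1 year, without overlap in either. In fibroblasts it went from 2.27 and 1.60 CPM to 1.52 and 1.26 CPM, a mean difference of -0.545 CPM, and in whole heart from 8.05, 11.1 and 8.79 CPM to 18.1, 16.6 and 20.9 CPM. The difference between the tissues was not tested, and the fibroblast groups hold 2 libraries each. It was the only case flagged when all 9 members were screened over several pairs of ages. With so few libraries a lack of overlap readily arises by chance. The share of all genes with such a pattern is not given. Late whole heart values were also those used in choosing the genes, so no conclusion is drawn. The fitted fibroblast change was -0.48 (SE 1.11, edgeR adjusted p = 0.977).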

How the results depend on the processing

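The rise of Selplg, Ptprc and Coro1a in whole heart from day 1 to 4 weeks kept its direction and its call in all 17 alternatives, with log2 fold changes of 2.86 to 3.58, 2.87 to 3.72 and 1.18 to 1.92. The lowest values came with library size only, which moved the median of all genes in that comparison from -0.09 to -0.60. Leaving out 1 replicate gave 3 to 3 members higher and 0 to 0 lower in that comparison. Leave-one-out counts were 0 to 2 members higher in fibroblasts from day 1 to 4 weeks and to 1.5 years, 0 to 0 in the other fibroblast comparisons, 0 to 3 lower in fibroblasts than in heart at day 1, 0 to 1 lower at 4 weeks and 0 to 2 for the tissue difference.

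Counts moved under other settings as follows. Fitting only the groups compared gave 1 member higher in fibroblasts of 1.5 years against 14 weeks and 0 lower in fibroblasts than in heart at 4 weeks. For the members lower in fibroblasts at day 1, DESeq2 gave 3 and at least 10 counts in every sample gave 0. For those at 4 weeks, library size only, no filter and at least 10 counts in every sample gave 1 each, and the length and GC offset gave 0. DESeq2 gave 1 member for the tissue difference. No label says that equal replicate numbers mark the same animal. Deviations of same-numbered libraries correlated at -0.06 to 0.10, which with so few libraries per group cannot show whether they were paired. With the replicate block, the count was 0 lower in fibroblasts at day 1 and 1 at 4 weeks, and with the block and the offset 0 at both. Under the block the edgeR adjusted p was 0.0559 for Cd79b at day 1 and 0.0691 for Coro1a at 4 weeks. The block left the 3 calls in whole heart from day 1 to 4 weeks in place.

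These uncalled values changed sign. Selplg in fibroblasts from 14 weeks to 1 year was -0.12 with the offset. Cd79a in whole heart from day 1 to 4 weeks was 0.39 with the block, and Cd79b was -0.46 with library size only, -0.31 with the block, -0.18 with the offset and -0.59 with both. Between tissues at 4 weeks, Selplg was 0.19 with library size only and 0.13 with block and offset, Cd79a was -2.02 with the block and -1.40 with block and offset, and Cd79b was 0.65 with block and offset. The tissue difference of Selplg was 0.0067 with block and offset. The cause of these changes was not tested.

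Leaving out 1 library at a time also turned signs, with these ranges. From day 1 to 4 weeks in fibroblasts, Cd52 ran from -1.87 to 0.15 and Coro1a from -0.17 to 2.08. From 4 to 14 weeks Cd52 ran from -1.64 to 0.38 and Cd79a from -1.50 to 8.94. From 14 weeks to 1 year Selplg ran from -0.0586 to 0.67 and Cd79a from -2.15 to 1.65. From 14 weeks to 1.5 years Cd52 ran from -0.0780 to 1.70, Coro1a from -0.0647 to 1.45, Cd79a from -1.14 to 3.26 and Ms4a1 from -2.03 to 1.11. From day 1 to 1.5 years Cd52 ran from -1.57 to 0.21 and Coro1a from -1.50 to 1.15. In whole heart from day 1 to 4 weeks, Cd3g ran from -5.88 to 5.48 and Cd79b from -0.88 to 0.66. Between tissues at day 1, Selplg ran from -4.88 to 1.09, Ptprc from -9.25 to 1.96 and Coro1a from -2.04 to 0.10. At 4 weeks Selplg ran from -0.98 to 0.19, Cd79a from -7.42 to 1.95 and Ms4a1 from -6.28 to 6.66. For the tissue difference Selplg ran from -1.49 to 4.70, Ptprc from -2.67 to 8.53 and Coro1a from -1.87 to 0.39. Where an arm kept 1 library, its spread was assumed equal to that of the other groups. Of the lymphocyte genes, few reads and 2 to 3 libraries per group limit what can be seen.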
